A study of Mus musculus with 2 samples.

Results

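The genes described here are those of cyclic AMP (cAMP) signalling: A-kinase anchoring proteins (AKAPs), subunits and inhibitors of protein kinase A (PKA), phosphodiesterases, adenylyl cyclases, the transcription factors CREB1 and CREM, the CRTC coactivators and the exchange factor Epac. Members were taken by gene symbol, from probe sets annotated to exactly 1 symbol. They comprised 64 genes measured by 169 probe sets, out of 18193 genes and 45037 probe sets on the arrays. Of these, 44 genes had at least 1 of their probe sets above a signal filter and received a value, together 90 probe sets.

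The study profiled Neuro2a, a mouse neuroblastoma cell line, by hybridising total RNA to Affymetrix Mouse Genome 430 2.0 arrays. One culture had received an siRNA against Tmem132a (mKIAA1583), a gene of a family of single-pass membrane proteins. The other, its control, had received a non-specific siRNA. Each group had 1 array. No value therefore has a replicate error, no test between the groups was possible, and the number of arrays limits the precision. The comparison asks which transcripts differed when Tmem132a was targeted, and each difference is given by its size, a log2 ratio with Tmem132a siRNA over control siRNA.

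Adenylyl cyclases make cAMP when G proteins switch them on, and phosphodiesterases break cyclic nucleotides down. In between, cAMP binds the regulatory subunits of PKA and frees the catalytic subunits, which phosphorylate CREB1 in the nucleus and many other proteins. AKAPs hold PKA at particular places in the cell, often beside a phosphodiesterase or a phosphatase. In neuroblastoma cells a rise in cAMP is a classical trigger of neurite outgrowth.

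Tmem132a had a signal of 435.6 with its siRNA, against 1825.5 with the control siRNA, a log2 ratio of -2.07 on its probe set 1416845_at. One label of that sample, its description, speaks of control siRNA, while the title and the treatment field name Tmem132a, and the lower signal lies on the array so titled. Of 18 neuroblastoma and sympathetic neuron markers on the arrays, 16 passed the filter, among them Hand2 with signals of 13190.2 with the Tmem132a siRNA and 15242 with the control siRNA. Their median log2 ratio was -0.28, against 0.02 for all genes. Of the 16, 15 lay below 0, so that 6.25% lay above it, against 51.8% of all genes. The exception was the dim Hand1, with 116.1 on the Tmem132a siRNA array and 56 on the control siRNA array (1.05, but -0.53 with no filter). Their part in the values below was not tested. In such bulk RNA, fewer cells of a type and less RNA per cell cannot be told apart. Markers of glia and fibroblasts had 0 of 9 and 0 of 7 genes past the filter, immune cells 1 of 7 (Csf1r, log2 ratio -0.10), and epithelium and endothelium 1 of 8. The last was Epcam, an epithelial adhesion molecule, with 146.1 on the Tmem132a siRNA array and 70.9 on the control siRNA array (1.04, but 0.12 with no filter and 0.59 with a pseudocount).

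Of the 44 measured cAMP pathway genes, 3 were at least 2-fold higher with the Tmem132a siRNA (6.82%), where 2.1% of all 10678 measured genes were. These were Akap3, Pde2a and Crem, and the probe sets of Pde2a disagreed. The filter is on the mean of both arrays, so a probe set could pass through the array on which it was high. Of the 90 measured probe sets, 10 passed through the Tmem132a siRNA array alone and 2 through the control siRNA array alone. Those 10 include 1 probe set each of Akap3, Pde2a and Crem, and without theirs Pde2a and Crem would be under 2-fold. The member counts are thus a description and support no direction. The count at least 2-fold lower was 0, against 2.44% of all genes. With 1.5-fold as the limit, 7 genes were higher (15.9%, against 8.83% of all genes) and 4 were lower (9.09%, against 9.1%). Of these, Pde1b and Pde4a passed the filter only through the Tmem132a siRNA array, and Pde9a only through the control siRNA array. The median log2 ratio was 0.12 over the 44 genes and 0.02 over all genes, and 28 of the 44 lay above 0 (63.6%, against 51.8% of all genes). These shares describe the 2 arrays, and with single probe sets or dim signals behind many of them the counts changed with the processing. Only Akap3 remained at least 2-fold higher when each gene was read from its brightest probe set, or when a pseudocount of 79.2 was added to the signals.

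**Figure D1:**
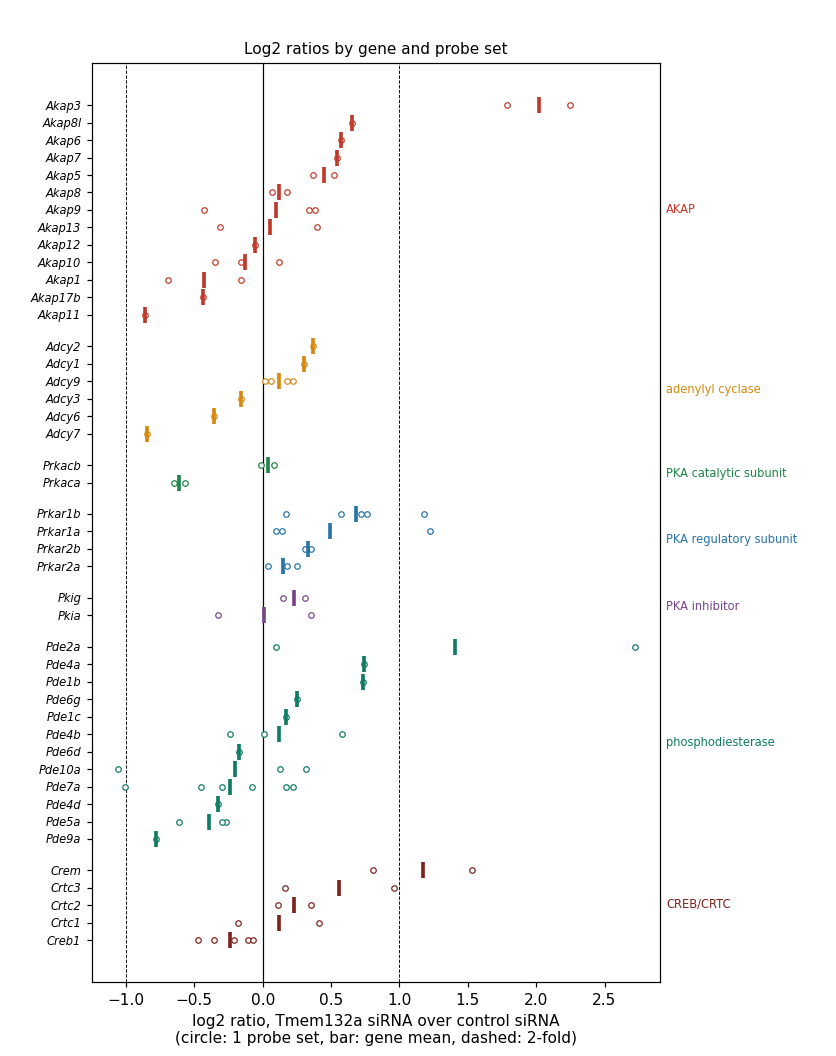
Log2 ratio (x axis, Tmem132a siRNA over control siRNA) of each of the 44 measured genes (y axis, grouped by role). Circles are single probe sets, bars are gene means and dashed lines mark 2-fold. Akap3 lies at 2.02, and the 14 probe sets of the PKA regulatory subunits all lie above 0.

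Akap3 had the largest ratio of these genes. It encodes an anchoring protein of the fibrous sheath of the sperm tail. Its probe set 1456591_x_at read 720.9 with the Tmem132a siRNA and 151.6 with the control siRNA. The other, 1421531_at, had 266.3 with the Tmem132a siRNA and 77.1 with the control siRNA, just under the filter of 77.25 on that array. Both were thus higher with the Tmem132a siRNA, by log2 ratios of 2.25 and 1.79, and the gene mean of 2.02 is a 4.05-fold higher level. Among all 5072 genes with at least 2 measured probe sets, 32 (0.631%) passed 2-fold upwards with every probe set 1.5-fold or more higher. Of the members, Akap3 and Crem met this rule, and 1 probe set of each passed the filter only through the Tmem132a siRNA array. Over the 9 alternative settings that gave Akap3 a value, its log2 ratio ranged from 1.47 to 2.25.

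Other genes of the sperm tail and of spermatids were mostly too dim to measure. Akap4, the partner of Akap3 in the fibrous sheath, had its brightest probe set at 40.2 with the Tmem132a siRNA and 51.4 with the control siRNA, below the filter of 77.25. Akap14, an anchoring protein of cilia, was at 14 with the Tmem132a siRNA and 56.3 with the control siRNA. Of 19 further fibrous sheath and spermatid genes on the arrays, 4 passed the filter, with a median log2 ratio of 0.21 and a range of -0.07 to 0.53. Of these 4, 0 were at least 2-fold higher, beside 2.1% of all genes. The listed genes below the filter were not evaluated, and their dim signals went both ways. The brightest probe set of Prm1 had 103.5 with the Tmem132a siRNA and 34.4 with the control siRNA. That of Ldhc had 1.7 with the Tmem132a siRNA and 54.2 with the control siRNA. Spa17, a sperm protein that carries a PKA-docking domain, was at 440.3 with the Tmem132a siRNA and 304 with the control siRNA. Ndufa9 and Rad51ap1, which lie near Akap3 on its chromosome, had log2 ratios of 0.20 and 0.33.

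The other 12 measured AKAPs differed less than 2-fold. Akap8l, a nuclear paralogue of Akap8, had a signal of 1024.4 with the Tmem132a siRNA and 653.9 with the control siRNA (log2 ratio 0.65). Akap6, an anchor at the nuclear envelope of muscle cells and neurons, had 1115.2 with the Tmem132a siRNA and 752.5 with the control siRNA (0.57). Akap7, which binds ion channels at the plasma membrane, had 398.5 with the Tmem132a siRNA and 273.7 with the control siRNA (0.54). These 3 values rest on 1 measured probe set each, and Akap7 turned to -0.43 with no filter, where a dim probe set entered. Akap5, the postsynaptic anchor of PKA and calcineurin, averaged a log2 ratio of 0.45, from probe sets at 0.37 and 0.52. The probe set at 0.52 passed the filter only through the Tmem132a siRNA array, on which it was high.

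Akap11, an anchor that also binds glycogen synthase kinase 3 and a phosphatase, was the lowest of the family. Its only probe set had a signal of 947.2 with the Tmem132a siRNA and 1724.9 with the control siRNA, a log2 ratio of -0.86 that ranged from -0.88 to -0.81 over the alternatives. Akap1, which tethers PKA to the outer mitochondrial membrane, had a log2 ratio of -0.43, with probe sets at -0.69 and -0.16. Akap17b lay at -0.44 on 1 probe set.

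The AKAPs with the least difference included the brightest probe set of the family, that of Akap12 (gravin), a plasma membrane scaffold, with 8868.5 on the Tmem132a siRNA array and 9267.3 on the control siRNA array. Akap8, a chromatin-associated anchor, had probe sets at log2 ratios of 0.07 and 0.18. Akap9, a large scaffold of the centrosome and Golgi, had a mean of 0.10 over probe sets from -0.43 to 0.38. Akap13 had 0.05 over -0.31 and 0.40, and Akap10, a dual-specificity anchor, -0.13 over -0.35 to 0.12. The 3 genes last named thus had probe sets on both sides of 0. The Akap13 probe set at 0.40 passed the filter only through the Tmem132a siRNA array. Across the family, 8 of 13 genes lay above 0 (61.5%, against 51.8% of all genes), with a median of 0.10.

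**Figure D2:**
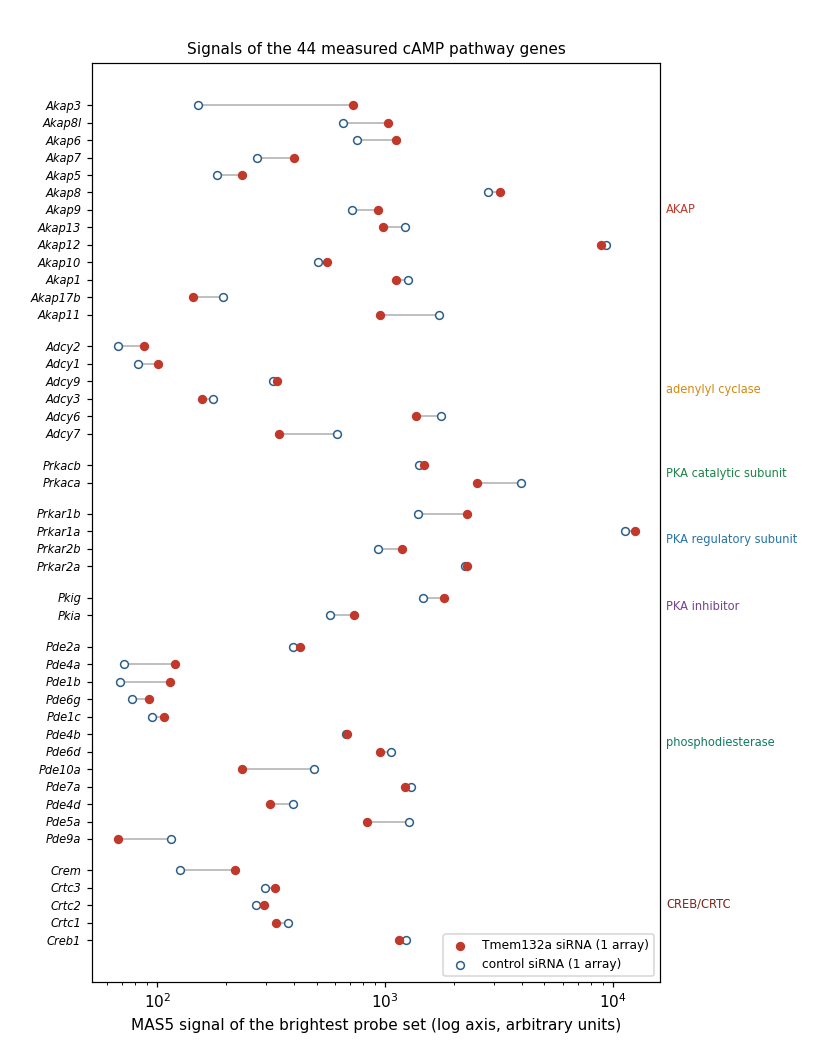
MAS5 signal (x axis, log scale, arbitrary units) of the brightest probe set of each measured gene (y axis) on the Tmem132a siRNA array (filled) and the control siRNA array (open), 1 array each. The widest gap is that of Akap3, at 720.9 with the Tmem132a siRNA and 151.6 with the control siRNA. Signals of different genes come from different probes and are not levels that can be compared.

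The PKA subunits differed in opposite ways. All 4 regulatory subunit genes were higher with the Tmem132a siRNA, and so were all 14 of their measured probe sets, whereas 51.9% of all measured probe sets lay above 0. Probe sets of the same gene are not independent, so this count is a description. That of Prkar1a, 1447635_at, passed the filter only through the Tmem132a siRNA array. A Prkar2a probe set below the filter had 26.4 with the Tmem132a siRNA and 29.4 with the control siRNA. Prkaca, the main catalytic subunit, was lower on both of its probe sets. None of these genes reached 2-fold.

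Prkaca had signals of 2524.4 with the Tmem132a siRNA and 3948.4 with the control siRNA on probe set 1447720_x_at. On 1450519_a_at it had 1201.3 with the Tmem132a siRNA and 1785.6 with the control siRNA. The log2 ratios of -0.65 and -0.57 lay close together, with an SD of 0.05, and the mean was -0.61. Both probe sets carry a suffix (x or a) that marks possible matches to more than 1 transcript. Prkaca thus had no value when x, s and a probe sets were left out, where Prkar1b had 0.67 and Akap3 1.79. Prkacb, the other catalytic subunit, had 1485.9 with the Tmem132a siRNA and 1404.4 with the control siRNA on its brightest probe set, and a gene log2 ratio of 0.04.

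Prkar1b, the type I regulatory subunit found mainly in the nervous system, had the largest ratio of the regulatory subunits, 0.68 over 5 probe sets. Its brightest, 1434325_x_at, had a signal of 2285.5 with the Tmem132a siRNA and 1388.8 with the control siRNA. The 5 probe sets ranged from 0.17 to 1.18, and the gene mean from 0.55 to 0.72 over the alternatives. Prkar2b, the type II subunit prominent in brain and fat, had 1188.7 with the Tmem132a siRNA and 934.5 with the control siRNA on its brightest probe set. Its 3 probe sets gave nearly the same log2 ratio, from 0.31 to 0.35, with a mean of 0.33.

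Prkar1a, the widely expressed type I subunit, had 12424.7 with the Tmem132a siRNA and 11306.9 with the control siRNA on its brightest probe set, a log2 ratio of 0.14, and the next brightest gave 0.10. Its gene mean of 0.49 was raised by a dim probe set, 1447635_at, with 154.5 on the Tmem132a siRNA array and 66.1 on the control siRNA array, below the filter there. Prkar2a, the widely expressed type II subunit, had a mean of 0.15 over 3 probe sets. The log2 ratios of the regulatory subunits exceeded that of Prkaca by 0.76 for Prkar2a, 0.94 for Prkar2b, 1.10 for Prkar1a and 1.29 for Prkar1b. Over the 9 alternatives that gave both values, the smallest of these differences was 0.68, for Prkar2a, and the largest 1.36, for Prkar1b. Prkacb, the other catalytic subunit, also exceeded Prkaca, by 0.65, with 0.25 to 0.73 over the alternatives. All of these differences share the value of Prkaca, the lowest of the PKA subunits, so their common sign follows from that choice. The differences do not divide regulatory from catalytic subunits. They are differences between changes, not between levels.

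The inhibitor peptides of the free catalytic subunit differed little. Pkig had 1817.9 with the Tmem132a siRNA and 1470.4 with the control siRNA on its brightest probe set, and a log2 ratio of 0.23 over 2 probe sets. Pkia lay at 0.01, with its probe sets at 0.35 and -0.33. Pkib was below the filter on both of its probe sets.

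Stretches of 250 bases upstream of RefSeq transcript starts are shown for Akap3, which had the largest ratio, and for PKA subunit genes that differed in opposite directions. Capitals mark the cAMP response element (CRE) TGACGTCA, its core TGACG, and the GC box GGGCGG, each searched on both strands. A full CRE contains that core on each strand and counts as 2 of them.
Akap3, GRCm38.p6 chr6:126852848-126853097, plus strand: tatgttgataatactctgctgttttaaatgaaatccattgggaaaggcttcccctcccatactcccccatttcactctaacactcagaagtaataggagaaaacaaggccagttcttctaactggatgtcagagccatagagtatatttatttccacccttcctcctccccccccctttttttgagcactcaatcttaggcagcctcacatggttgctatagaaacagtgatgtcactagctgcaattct
Prkaca, GRCm38.p6 chr8:83972728-83972977, plus strand: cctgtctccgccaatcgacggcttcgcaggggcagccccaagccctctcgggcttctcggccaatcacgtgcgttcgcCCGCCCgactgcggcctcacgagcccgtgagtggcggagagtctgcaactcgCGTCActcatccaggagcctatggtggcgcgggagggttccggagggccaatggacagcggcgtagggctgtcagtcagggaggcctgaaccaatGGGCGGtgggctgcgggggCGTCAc
Prkar1a, GRCm38.p6 chr11:109650699-109650948, plus strand: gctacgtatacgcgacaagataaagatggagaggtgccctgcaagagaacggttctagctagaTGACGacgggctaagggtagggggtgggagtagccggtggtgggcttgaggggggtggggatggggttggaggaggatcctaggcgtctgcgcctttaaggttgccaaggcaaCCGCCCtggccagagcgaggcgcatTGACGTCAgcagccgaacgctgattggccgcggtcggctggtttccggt
Prkar1b, GRCm38.p6 chr5:139150002-139150251, minus strand: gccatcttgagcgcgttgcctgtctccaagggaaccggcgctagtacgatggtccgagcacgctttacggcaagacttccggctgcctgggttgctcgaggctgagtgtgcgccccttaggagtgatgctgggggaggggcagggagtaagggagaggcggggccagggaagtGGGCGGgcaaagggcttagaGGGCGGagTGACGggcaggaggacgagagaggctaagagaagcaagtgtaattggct

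RefSeq promoters matched 50 of the 64 member genes, with 95 transcript starts, and where a gene had several starts the one with the most matches is shown. A full CRE stood upstream of 1 of the 95 member starts, that of Prkar1a shown, and of 508 of all 32851 starts (1.55%). The core stood in 16 of the 95 (16.8%, against 17.8% of all) and the GC box in 41 (43.2%, against 32.7%). Prkaca and Prkar1b, which differed in opposite directions, both hold CRE cores and GC boxes in the stretches shown, and Akap3 holds none of the 3 motifs there. A match is a description of the letters and not evidence of binding.

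Of 10 adenylyl cyclases on the arrays, 6 were measured, and none reached 2-fold. Of the 6, 3 lay above 0 (50%, against 51.8% of all genes) and 3 below. Adcy7 was the lowest. Its measured probe set 1456307_s_at read 341.7 with the Tmem132a siRNA and 615.8 with the control siRNA, a log2 ratio of -0.85. That value moved to -0.14 with no signal filter, where 2 dim probe sets entered.

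Adcy6, an isoform inhibited by calcium, had 1369.1 with the Tmem132a siRNA and 1753.2 with the control siRNA on its single probe set (log2 ratio -0.36, and -0.37 to -0.34 over the alternatives). Adcy9 was measured by 4 probe sets, all between 0.02 and 0.22, and differed least. Adcy1, stimulated by calcium and calmodulin, and Adcy2, stimulated by G protein beta-gamma subunits, were dim and had log2 ratios of 0.30 and 0.37. The only probe set of Adcy2 had 87.2 with the Tmem132a siRNA and 67.3 with the control siRNA. It passed the filter through the Tmem132a siRNA array alone, and Adcy2 is counted among the cyclases above 0. Adcy3, the cyclase of olfactory neurons and cilia, lay at -0.16.

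The phosphodiesterases were divided, with 6 of 12 measured genes above 0 (50%, against 51.8% of all genes) and a median log2 ratio of -0.02. Pde2a, whose activity on cAMP is stimulated by cGMP, had the highest gene ratio of the family, 1.41, but its probe sets did not agree. Probe set 1447707_s_at read 422.6 with the Tmem132a siRNA and 393.9 with the control siRNA, a log2 ratio of 0.10. The dimmer 1447708_x_at, which passed the filter only through the Tmem132a siRNA array, had 165.2 with the Tmem132a siRNA and 25 with the control siRNA, a ratio of 2.72, while a further one below the filter had 25.8 with the Tmem132a siRNA and 31.2 with the control siRNA. The measured probe sets of Pde2a thus differed by more than most, with an SD of 1.85. Its gene ratio was under 2-fold with no filter (0.85), with the pseudocount (0.66) and by the brightest probe set (0.10).

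The cAMP-specific phosphodiesterases of the PDE4 family lay on both sides of 0. Pde4a had 119.4 with the Tmem132a siRNA and 71.7 with the control siRNA on its single probe set (log2 ratio 0.74). Pde4b, often induced by cAMP itself, had 677.9 with the Tmem132a siRNA and 674.1 with the control siRNA on its brightest probe set, and a gene ratio of 0.12. Pde4d had 314 with the Tmem132a siRNA and 394.2 with the control siRNA (-0.33). Pde7a, also specific for cAMP, had a mean of -0.24 over 6 probe sets that ran from -1.01 to 0.22. Of the calmodulin-dependent PDE1 family, Pde1b had 114.3 with the Tmem132a siRNA and 68.9 with the control siRNA (0.73) and Pde1c had a ratio of 0.17. The only probe sets of Pde4a and Pde1b passed the filter through the Tmem132a siRNA array alone, on which they were high. A Pde4b probe set with a log2 ratio of 0.58 did so too.

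Both measured enzymes specific for cGMP, Pde5a and Pde9a, were lower. The only probe set of Pde9a passed the filter through the control siRNA array alone, on which it was high. Pde5a, the target of sildenafil, was lower on all 3 of its probe sets. Its signals were 831.9, 838.2 and 719.1 with the Tmem132a siRNA, against 1269, 1009.8 and 887.9 on the same probe sets with the control siRNA. The log2 ratios ran from -0.61 to -0.27, with a gene mean of -0.39. Pde9a, a high-affinity cGMP enzyme, had 67.2 with the Tmem132a siRNA and 115.5 with the control siRNA (-0.78), near the filter.

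Pde10a, which acts on both cyclic nucleotides and is abundant in the striatum, depended on the probe set. The brightest, 1439618_at, had 235.1 with the Tmem132a siRNA and 489.8 with the control siRNA, a log2 ratio of -1.06, whereas 1419389_at had 334.8 with the Tmem132a siRNA and 268.2 with the control siRNA (0.32). The gene mean was -0.20. Pde6d, which despite its name is a carrier of prenylated proteins, had a ratio of -0.17, and Pde6g, an inhibitory subunit of the rod photoreceptor enzyme, one of 0.25 near the filter.

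Crem, a relative of CREB1 that also encodes the cAMP-inducible repressor ICER, was also past 2-fold. Probe set 1418322_at read 220.4 with the Tmem132a siRNA and 125.4 with the control siRNA. Probe set 1449037_at had 139.8 with the Tmem132a siRNA and 48.5 with the control siRNA. Their log2 ratios were 0.81 and 1.53, with a mean of 1.17. The second passed the filter only through the Tmem132a siRNA array, and the 2-fold size of Crem depends on it. The 2 Crem probe sets below the filter went the other way, with 32.8 and 35.2 on the Tmem132a siRNA array against 59.6 and 48 on the control siRNA array. Crem fell short of 2-fold by its brightest probe set (0.81), with the pseudocount (0.66) and with no filter (0.26), and lay above 0 in each.

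Creb1 itself was slightly lower on all 5 of its measured probe sets. They ran from -0.47 to -0.07, with a mean log2 ratio of -0.24, and the brightest had 1150.7 with the Tmem132a siRNA and 1238.4 with the control siRNA. Of these, 1421582_a_at passed the filter only through the control siRNA array, on which it was high (93.3, against 72.8 with the Tmem132a siRNA). A further Creb1 probe set, below the filter, had 7.5 with the Tmem132a siRNA and 2 with the control siRNA. The CRTC coactivators, which bind CREB1 once they are dephosphorylated, lay above 0. Crtc3 averaged 0.56 over probe sets at 0.16 and 0.96, Crtc2 one of 0.23 over 0.11 and 0.35, and Crtc1 one of 0.12 over -0.18 and 0.41.

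**Figure D3:**
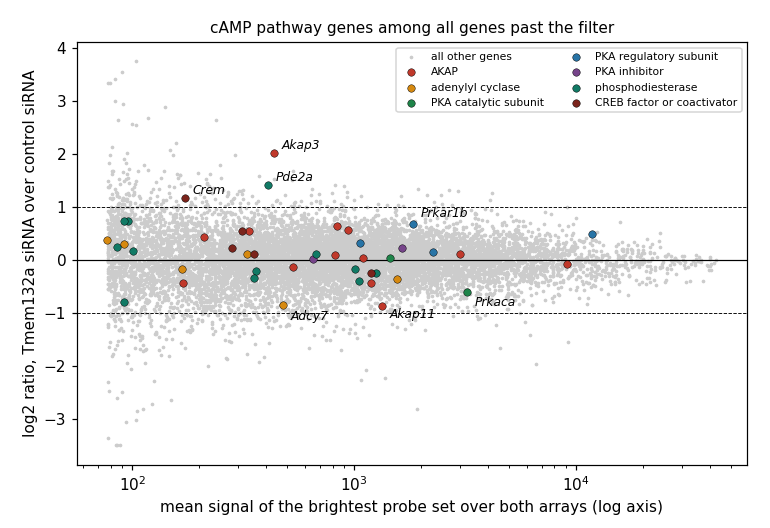
Log2 ratio (y axis, Tmem132a siRNA over control siRNA) against the mean signal of the brightest probe set over both arrays (x axis, log scale) for all 10678 measured genes (grey) and the 44 cAMP pathway genes (coloured by role). Dashed lines mark 2-fold. Akap3, Pde2a and Crem lie above the upper line, in the range of signals where the grey points are widest.

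The spread of ratios depended on the signal. Of the 44 genes, 21 had a brightest probe set below 500, with an SD of log2 ratios of 0.69 (all genes of that range 0.62), and all 3 genes past 2-fold were among them. Between 500 and 2000 there were 18 members, with an SD of 0.40 (all genes 0.41), and above 2000 there were 5, with an SD of 0.40 (all genes 0.34). Of 26 members with at least 2 measured probe sets, 17 had all of them on one side of 0 (65.4%, against 55.2% of such genes overall). Around their gene mean the probe sets had an SD of 0.46, against 0.39 for all genes. The other 18 members rest on 1 probe set.

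The remaining 20 members had no probe set past the filter, and no ratio is given for them. They were 3 AKAPs (Akap2, Akap4 and Akap14), 4 cyclases (Adcy4, Adcy5, Adcy8 and Adcy10), the inhibitor Pkib, the cAMP-activated exchange factor Rapgef3 (Epac) and 11 phosphodiesterases. Those phosphodiesterases were Pde1a, Pde3a, Pde3b, Pde6a, Pde6b, Pde6c, Pde6h, Pde7b, Pde8a, Pde8b and Pde11a, some of them photoreceptor subunits. Their 40 probe sets had signals of at most 98.2 with the Tmem132a siRNA and at most 71.9 with the control siRNA. Adcy5, a cyclase inhibited by calcium, was just under the filter, with 98.2 with the Tmem132a siRNA and 55.7 with the control siRNA on its brightest probe set.

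Other genes of the pathway were counted from lists. Of 24 measured target genes of CREB, 5 were at least 2-fold higher (20.8%) and 0 were lower by that much, beside 2.1% and 2.44% of all genes, and the median log2 ratio was 0.15. The list was chosen with earlier results of these arrays known, so the count is not independent evidence of a direction. Per2, a circadian clock repressor, had a signal of 366.1 with the Tmem132a siRNA and 145.7 with the control siRNA (log2 ratio 1.33). Its paralogue Per1 had 215.9 with the Tmem132a siRNA and 105.3 with the control siRNA (1.04). Nfil3, a transcriptional repressor that also acts on clock genes, had 1113 with the Tmem132a siRNA and 514 with the control siRNA (1.11).

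The other 2 were Egr1, at 1.27, and Atf3, at 1.39, transcription factors that also answer to growth factor and stress signals. All 5 rest on 1 probe set each, and with the pseudocount 3 of them stayed at 2-fold. Of the 24 measured targets, 13 lay above 0 (54.2%, against 51.8% of all genes). With 1.5-fold as the limit, 5 were higher (20.8%, against 8.83% of all genes) and 3 were lower (12.5%, against 9.1%). The following targets under 2-fold are examples chosen after their values were seen. Nr4a1 had a log2 ratio of 0.41, Fos one of 0.35, Nr4a3 one of -0.48 and Nr4a2 one of -0.72. Sik1, a kinase that restrains the CRTC coactivators, had signals of 101.9 with the Tmem132a siRNA and 115.2 with the control siRNA (-0.18).

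**Figure D4:**
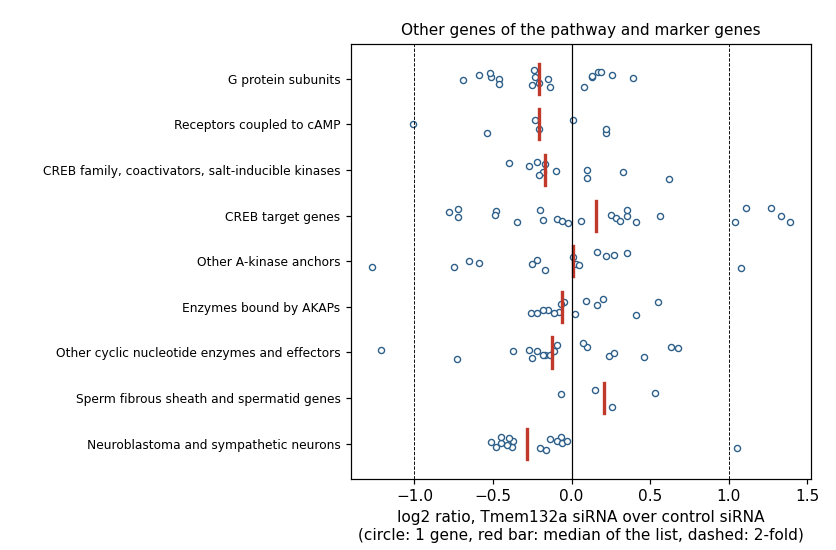
Log2 ratios (x axis, Tmem132a siRNA over control siRNA) of measured genes in 8 further lists of the pathway and in the neuroblastoma marker list (y axis). Circles are genes, red bars are medians (0.15 for CREB target genes and -0.28 for neuroblastoma markers) and dashed lines mark 2-fold.

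Of the G protein subunit genes, 19 were measured, with a median log2 ratio of -0.21 and 0 gene means past 2-fold either way. Among all genes 2.1% were at least 2-fold higher and 2.44% lower. The counts in this and the following short lists are descriptions beside those shares. Of the 19, 7 lay above 0 (36.8%, against 51.8% of all genes) and 12 below. Gnas, the stimulatory alpha subunit, had 18568.2 with the Tmem132a siRNA and 19993.2 with the control siRNA on its brightest probe set, with probe sets at -0.81 and -0.11. Gna13 had 3449 with the Tmem132a siRNA and 7077.5 with the control siRNA on its brightest probe set. Its gene mean was -0.69, over 7 probe sets from -1.37 to 0.20. Of 25 receptors and receptor partners that act on cAMP, 7 were measured. Ramp2, a partner of the calcitonin receptor-like receptor, was the only one past 2-fold, with 369.4 on the Tmem132a siRNA array and 744.6 on the control siRNA array (-1.01).

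Among 15 measured A-kinase anchors outside the AKAP symbols, 1 was lower by 2-fold or more and 1 was higher. Myrip, which links PKA to secretory vesicles, had 642 with the Tmem132a siRNA and 1548.4 with the control siRNA (log2 ratio -1.27). Rsph3a, of the radial spoke of cilia and sperm tails, had 336 with the Tmem132a siRNA and 158.8 with the control siRNA (1.08). The 14 measured enzymes bound by AKAPs, such as calcineurin and protein phosphatase 1, had a median of -0.06, a range of -0.26 to 0.55 and 0 past 2-fold. CREB family members, coactivators and salt-inducible kinases (11 genes) had a median of -0.17, with 0 past 2-fold. Of 18 further cyclic nucleotide enzymes and effectors, Popdc2, a cAMP-binding membrane protein, was 2-fold lower, with 137.8 on the Tmem132a siRNA array and 319 on the control siRNA array (-1.21), and 0 were 2-fold higher. Prkx, a kinase related to the PKA catalytic subunits, had 932.1 with the Tmem132a siRNA and 555.6 with the control siRNA on its brightest probe set, and a log2 ratio of 0.63 over 3 probe sets.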

How the data were processed

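Total RNA of 2 Neuro2a samples was hybridised to 1 array each, and groups were taken from the sample titles. The authors deposited MAS5 signals, a linear intensity for each probe set, per the submitters' processing notes and the series text. The MAS5 version and its scaling target are not given in the sources used here, and the 2% trimmed mean was 500.003 on either array. Detection calls were not used here.

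Tools were Python 3.11.15, statsmodels 0.14.6, scipy 1.17.1, pandas 2.3.3, numpy 2.4.6 and matplotlib 3.10.9. Signals were rescaled to a common trimmed mean, 64 control probe sets of 45101 were dropped, and gene names came from the platform annotation (34945 with 1 symbol, 932 with several, 9160 unlisted). A probe set passed when its mean signal over both arrays reached the median of all (77.25), and signals below the 20th percentile (14.5) were set to it. No measured member probe set was at that floor. A gene's value is the mean log2 ratio of its probe sets past the filter, and 2-fold was the limit for a call. The procedure was tested on simulated data with the same noise at all signals. That test cannot show how calls behave for dim genes, where the ratios spread more. All measured members are named, and other list genes when past 2-fold or as examples chosen after their values were seen. Members and lists were chosen with earlier results of these data known. Promoter sequences are those of RefSeq on GRCm38.p6. A total of 10 alternatives were tried: quantile normalization, loess (span 0.3), a median ratio of 0, signals as deposited, no filter, a 75th percentile filter (463), no floor, a pseudocount of 79.2, the brightest probe set, and no x, s or a probe sets.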

Additional observations from a re-analysis of the deposited data

How the results depend on the processing

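No paired analysis was possible because each group had 1 array. Of the 3 member genes at least 2-fold higher, 1 was left with the pseudocount and 1 by the brightest probe set. With the 75th percentile filter the count was 0 of 24 measured genes, since Akap3, Pde2a and Crem were too dim to pass it. The member genes at least 2-fold lower, 0 in the report, were 1 by the brightest probe set (Pde10a, -1.06) and 3 with no filter, and these 3 (Adcy4, Akap14 and Pde6c) all lay below the filter. With no filter the median log2 ratio of members was 0.01. Of the 5 CREB target genes at least 2-fold higher, 3 were left with the 75th percentile filter and 3 with the pseudocount, and 1 was at least 2-fold lower without x, s and a probe sets, where fewer probe sets entered. These CREB target counts were added after seeing the data. The marker Hand1, at 1.05, reversed to -0.53 with no filter. With the pseudocount Per1 (0.68), Per2 (0.99), Popdc2 (-0.88), Ramp2 (-0.88) and Rsph3a (0.80) were also under 2-fold, as was Rsph3a with no filter (0.54). Of 525 gene values over all alternatives, 504 kept their side of the 2-fold limit, 19 fell below it, 1 passed it and 1 reversed. The sign of 11 member genes under 2-fold in the report turned in at least 1 alternative (Adcy3, Akap7, Akap9, Akap10, Akap13, Crtc1, Pde1c, Pde4b, Pde7a, Pde10a and Prkacb). Over all genes, 1312 were higher and 881 lower with no filter, 44 and 90 with the 75th percentile filter, and 49 and 79 with the pseudocount, against 224 and 261 in the report. No scaling moved the median of all genes by over 0.01. Dim signals limit what can be said of Crem, Pde1b, Pde4a and Pde9a.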
